A study of Mus musculus with 12 samples.

Results

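Receptors for vasoactive signals are the cell-surface proteins through which hormones, transmitters and local mediators make a vessel constrict or relax. The group was a list of 52 gene symbols in 15 families, looked up in the annotation of the array. Each gene was represented by its probe set with 1 symbol and the highest mean. In all, 40 receptors were measured, among 19938 genes tested. Of the other 12, Adora3 shared a probe set with another gene and was left out, and 11 were not analysed here (Agtr1b, Ednra, Adra1a, Adra1d, Adra2a, Adra2b, Adrb1, Adrb3, Adora1, Adora2a and Adora2b), so the beta-adrenoceptor and adenosine families had no measured member. All but 1 of the 40, Vipr1, had a single probe set.

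RNA came from 4 vessels of untreated wild-type C57BL/6 mice aged 8 weeks, with 3 Affymetrix arrays each. They were the ascending aorta, the coronary artery, the descending aorta and the superior mesenteric artery, a branch of the aorta to the intestine. The study set out to compare vessels whose walls arise from different embryonic sources. Replicates are labelled as biological, with the number of mice behind each sample not given in the sources used here, and a p-value here weighs a difference against the variation among these samples. Values are log2 expression, levels are means ± SD (n = 3 arrays in each vessel), and differences are log2 units ± SE. With 3 arrays in each vessel, precision is limited by their number.

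Most of these receptors span the membrane with 7 helices and signal through G proteins, as known from the wider literature. Coupling to the Gq/11 class raises calcium and contracts smooth muscle, coupling to Gs raises cyclic AMP and relaxes it, and coupling to Gi/o lowers cyclic AMP. Constrictor receptors for angiotensin, noradrenaline, thromboxane and serotonin sit mainly on smooth muscle, and many dilator signals act through receptors on the endothelium.

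The arrays also differed in the levels of marker genes of cell types. The cardiomyocyte list (15 of 15 markers measured) averaged between 10.30 and 10.48 in the coronary artery arrays and between 3.93 and 6.00 in the other 9, where the highest value was in descending aorta replicate 1. Smooth muscle markers (12 of 12) averaged 5.36 to 5.79 in coronary artery and 6.36 to 9.49 in the other 9 arrays, so the 3 arrays labelled coronary artery were low in smooth muscle and rich in heart muscle transcripts. The B cell list (7 of 8) stood at 7.80 in ascending aorta replicate 1. It was also raised in 2 superior mesenteric artery arrays (6.69 in replicate 2, 6.45 in replicate 3) and lay between 3.71 and 4.73 elsewhere. Pancreatic acinar markers (6 of 7) averaged 9.70 in superior mesenteric artery replicate 3. In whole-vessel RNA, fewer cells of a type and less RNA per cell cannot be told apart.

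Across the 4 vessels, 3 of the 40 receptors differed by limma's moderated F test at an adjusted p under 0.05: Chrm2, the muscarinic acetylcholine receptor that slows the heart, Agtr1a, the main constrictor receptor for angiotensin II, and Calcrl, the chain shared by the receptors for CGRP and adrenomedullin. That is 7.5% of the receptors, against 4.72% of all genes tested. The limma count was 7 without ascending aorta replicate 1 and 5 without ascending aorta replicate 2 or 3. For this and later counts from other fits, the share of all genes that passed was not worked out. Another 3 receptors, Ptger3, Vipr2 and Ptgir, passed in a pair of vessels, which made 6 of 40 in at least 1 of the 6 pairs (15%, against 6.8% of all genes). The remaining 34 did not pass in any pair, and for 28 of them the vessel means lay less than 1 log2 unit apart.

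**Figure D1:**
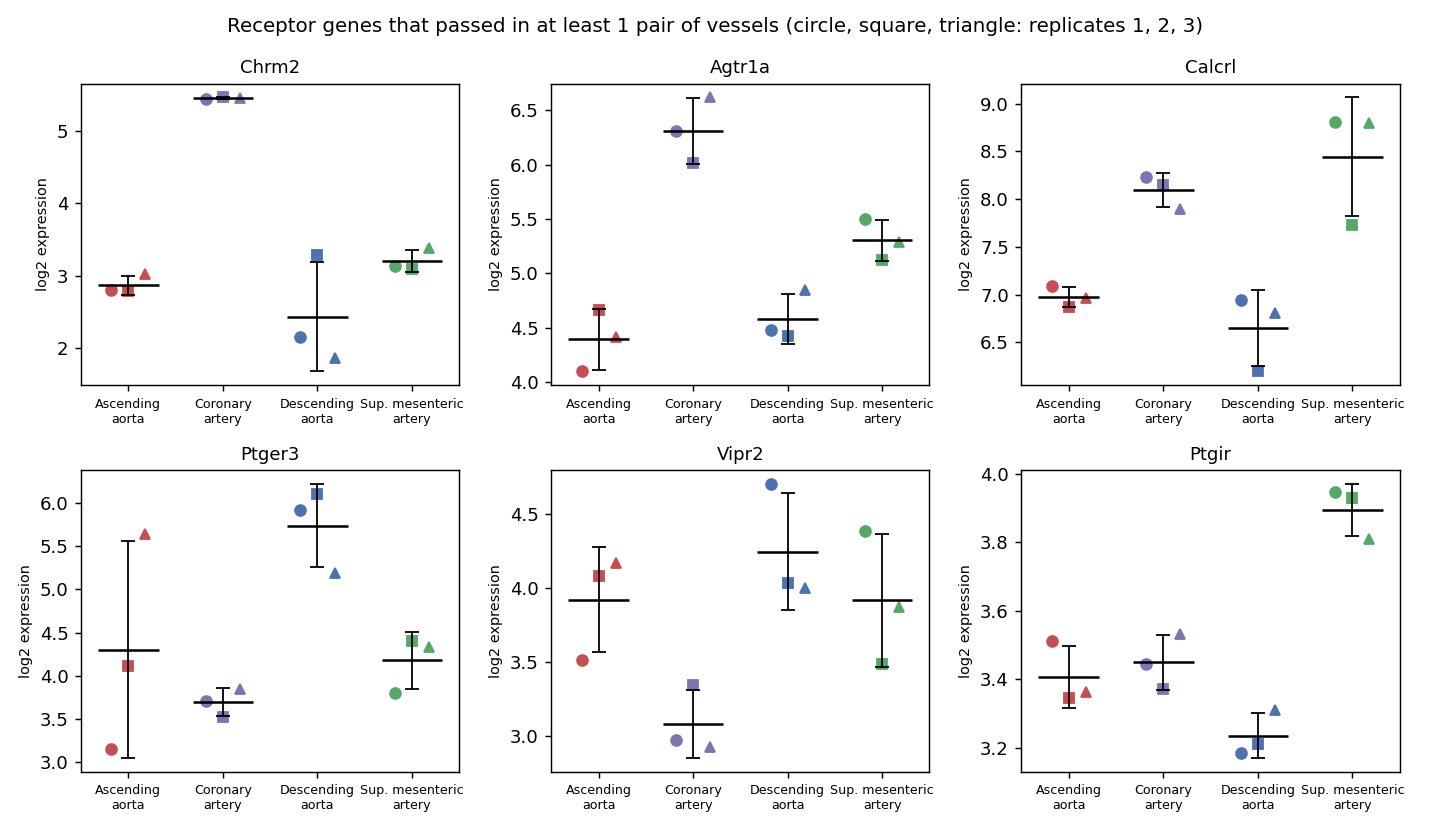
Log2 expression of the 6 receptors that passed in at least 1 pair (vertical axis, its range set per panel) by vessel; points are arrays, bars are means and error bars are SD (n = 3). Chrm2 lay between 5.44 and 5.46 in coronary artery and at or below 3.38 in the other arrays.

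Chrm2 showed the widest range of vessel means among the 40 receptors. It read 2.80, 2.78 and 3.02 in ascending aorta, 5.44, 5.46 and 5.46 in coronary artery, 2.15, 3.28 and 1.86 in descending aorta and 3.14, 3.09 and 3.38 in superior mesenteric artery. The coronary artery arrays stood above all 9 others without overlap. Coronary artery was higher than descending aorta by 3.02 ± 0.29 (limma adjusted p = 5.47e-05) and higher than superior mesenteric artery by 2.25 ± 0.29 (limma adjusted p = 0.000706). Ascending aorta was lower than coronary artery by 2.58 ± 0.29 (limma adjusted p = 0.000241). These 3 calls held without any 1 array. Outside coronary artery the vessel means of Chrm2, between 2.43 and 3.20, were about as low as those of the dimmest receptors measured. Whether they lie above background is not known here, so no fold is given. Chrm2 is the muscarinic receptor of heart muscle, and its pattern ran beside that of the cardiomyocyte list, whose part in the result was not tested. In descending aorta replicate 1, where that list stood at 6.00 against 3.93 in replicates 2 and 3, Chrm2 read 2.15, between its values of 3.28 in replicate 2 and 1.86 in replicate 3. The list value there was far below the 10.30 to 10.48 of coronary artery. With Chrm2 this low, that array cannot show whether Chrm2 follows the list. Without descending aorta replicate 2, Chrm2 was also lower in descending aorta than in superior mesenteric artery, by 1.20 ± 0.19 (limma adjusted p = 0.0157; 0.227 with all arrays).

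The other muscarinic receptor measured, Chrm3, through which acetylcholine makes the endothelium release nitric oxide, had vessel means between 2.77 and 2.98 (limma F test adjusted p = 0.927). Hrh1, the histamine receptor of endothelium and smooth muscle, had vessel means between 3.65 and 4.04.

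Agtr1a had its highest levels in coronary artery and intermediate ones in superior mesenteric artery. It read 4.10, 4.66 and 4.42 in ascending aorta, 6.31, 6.01 and 6.62 in coronary artery, 4.48, 4.42 and 4.85 in descending aorta and 5.50, 5.13 and 5.29 in superior mesenteric artery. The arrays of coronary artery lay above those of superior mesenteric artery, and these lay above all 6 aortic arrays, while the 2 aortic segments overlapped. Coronary artery exceeded descending aorta by 1.73 ± 0.22 (3.32-fold, limma adjusted p = 0.000547), and ascending aorta was lower than coronary artery by 1.92 ± 0.22 (limma adjusted p = 0.000241). Both calls held without any 1 array. Coronary artery was higher than superior mesenteric artery by 1.01 ± 0.22 (limma adjusted p = 0.0226). That call was lost without coronary artery replicate 1 or 3 or superior mesenteric artery replicate 2 or 3 (limma adjusted p = 0.0710, 0.115, 0.0872 and 0.0837). The difference between descending aorta and superior mesenteric artery, -0.72 ± 0.22, did not pass (limma adjusted p = 0.109). Mouse Agtr1a has a close paralogue, Agtr1b, and whether the probe set also binds its transcript was not tested. The cardiomyocyte list was high in the same 3 arrays. The epicardium and mesothelium list (6 of 6 markers) averaged 7.61 to 8.12 in coronary artery and 5.80 to 7.29 in superior mesenteric artery. It averaged 3.87 to 6.24 in ascending aorta and 5.11 to 6.85 in descending aorta. The part of either list in the Agtr1a values was not tested.

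Agtr2, the receptor that opposes many actions of Agtr1a, had vessel means between 2.54 and 2.76. With Adra2c and Chrm3 it was 1 of 3 receptors among the dimmest 25% of genes, and whether such values lie above background is not known here.

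Calcrl was higher in both branch arteries than in descending aorta. It read 7.09, 6.87 and 6.96 in ascending aorta, 8.24, 8.15 and 7.89 in coronary artery, 6.94, 6.19 and 6.80 in descending aorta and 8.81, 7.73 and 8.80 in superior mesenteric artery. All 6 arrays of the branch arteries lay above all 6 aortic arrays, and within each of those sets the vessels overlapped. Coronary artery exceeded descending aorta by 1.44 ± 0.29 (2.72-fold, limma adjusted p = 0.0143), a call lost when coronary artery replicate 1 or 2 was left out (limma adjusted p = 0.0715 and 0.0644), and likewise for descending aorta replicate 2 (0.0867). Descending aorta was lower than superior mesenteric artery by 1.80 ± 0.29 (limma adjusted p = 0.00493), which held without any 1 array. Ascending aorta differed by -1.12 ± 0.29 from coronary artery and by -1.47 ± 0.29 from superior mesenteric artery and did not pass (limma adjusted p = 0.0669 and 0.0867). Leaving out superior mesenteric artery replicate 2 brought both past the threshold (limma adjusted p = 0.0165 against coronary artery and 0.0105 against superior mesenteric artery). Leaving out ascending aorta replicate 1 did so for the difference from superior mesenteric artery (0.0196). Calcrl is known as a gene of blood and lymphatic endothelium. The endothelial list (12 of 12 markers) averaged 5.24 to 6.31 in ascending aorta, 6.35 to 6.67 in coronary artery, 5.46 to 5.84 in descending aorta and 5.64 to 7.51 in superior mesenteric artery. Replicate 2 of superior mesenteric artery was the lowest of its vessel for both Calcrl and this list, whereas replicate 1 of ascending aorta had the highest Calcrl of its vessel and the lowest value of the list. The lymphatic endothelial list (4 of 4 markers) averaged 5.12 to 5.64 in ascending aorta, 6.19 to 6.36 in coronary artery, 5.38 to 5.50 in descending aorta and 5.72 to 6.89 in superior mesenteric artery. Like Calcrl, the mean of this list was higher in all 6 arrays of the branch arteries than in all 6 aortic arrays. The gap was narrow (5.72 against 5.64), and no marker of the list taken alone separated the arrays this way. The part of endothelial content, blood or lymphatic, was not tested.

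Calcrl works only with a RAMP partner, which sets whether the pair binds CGRP or adrenomedullin. None of the 3 partner genes passed in any pair. Ramp1, which makes the CGRP receptor, had vessel means between 5.65 and 6.09. Ramp2 and Ramp3, which make adrenomedullin receptors, had means between 6.69 and 7.26 and between 3.48 and 4.11. Ramp2 varied within vessels, reading 5.60, 7.05 and 7.42 in ascending aorta and 7.91, 6.42 and 7.45 in superior mesenteric artery.

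Between coronary artery and descending aorta, 5 of 40 receptors passed (12.5%, against 3.14% of all genes): Chrm2, Agtr1a and Calcrl were higher in coronary artery, and Ptger3 and Vipr2 were lower. Among all genes 1.53% were higher and 1.61% lower. This limma count was 2 when descending aorta replicate 2 or either of coronary artery replicates 1 and 2 was left out, and 3 without coronary artery replicate 3, descending aorta replicate 1 or superior mesenteric artery replicate 3. Chrm2 and Agtr1a were called in each of these fits.

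**Figure D2:**
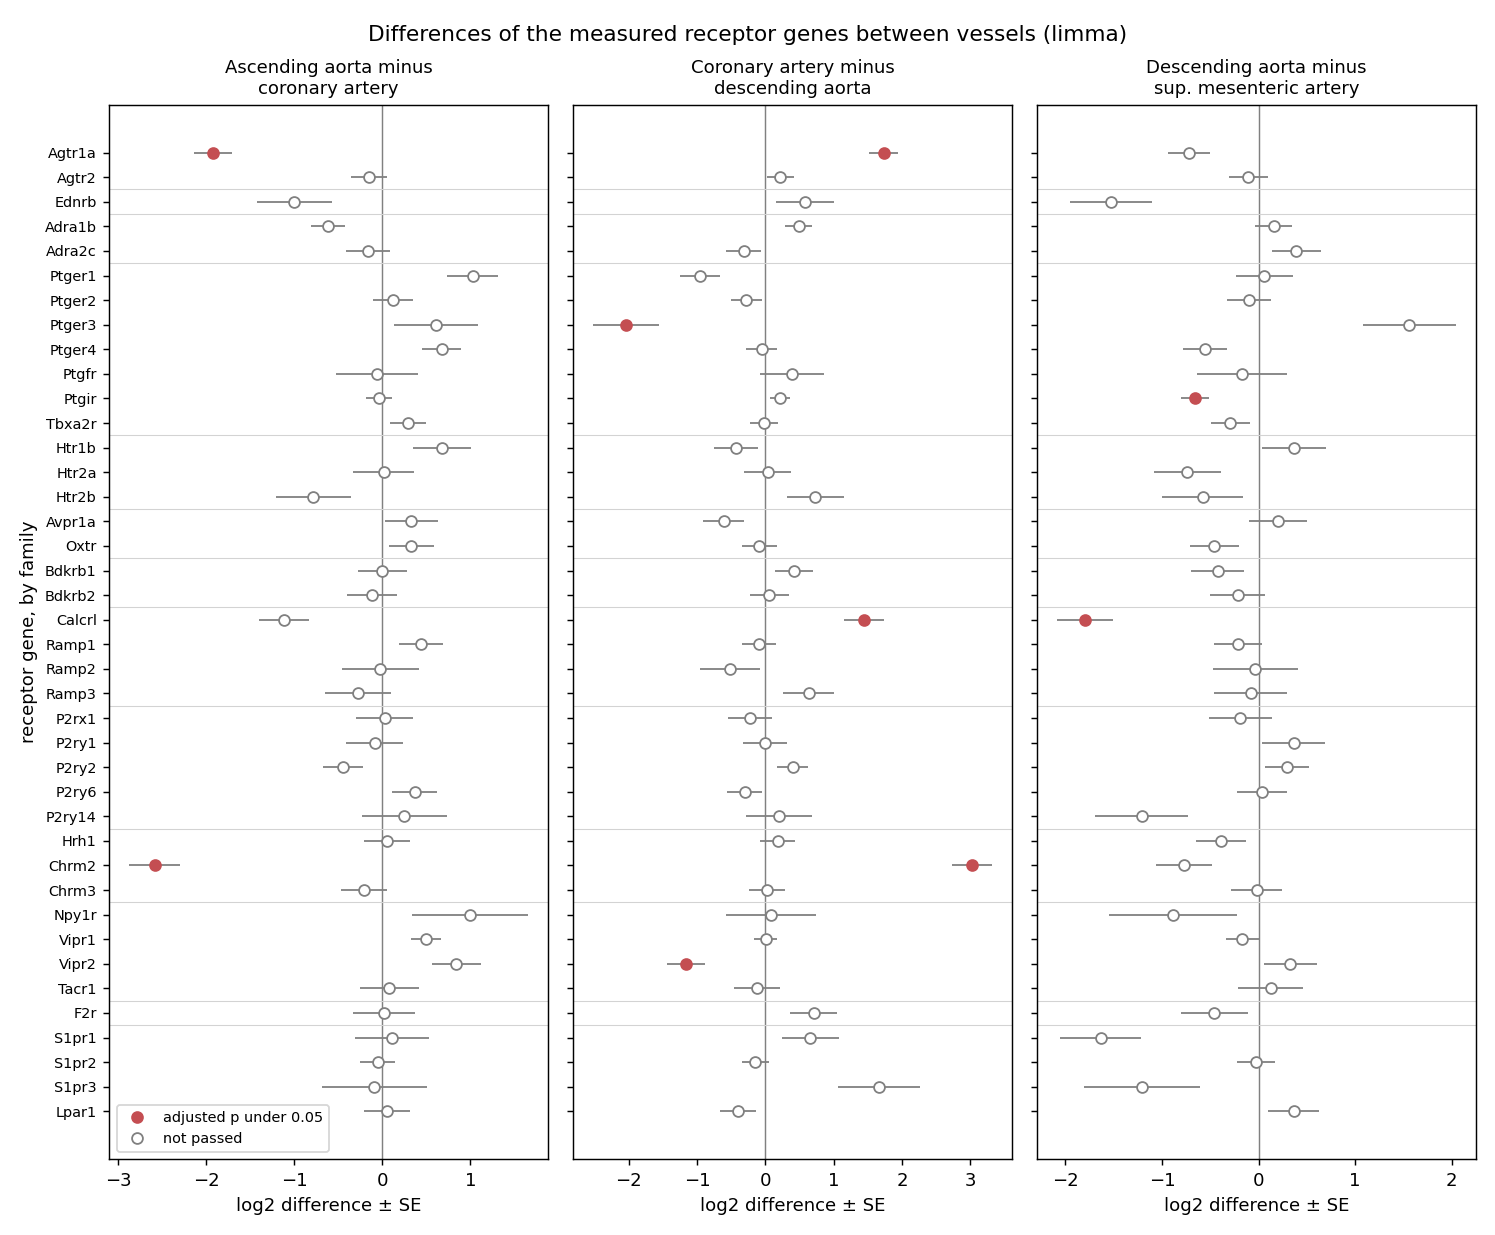
Differences in log2 expression ± SE (horizontal axis, scale set per panel) of the 40 measured receptors, grouped by family, in 3 of the 6 pairs of vessels; filled points passed limma at an adjusted p under 0.05. Between coronary artery and descending aorta, Chrm2, Agtr1a and Calcrl lie to the right and Ptger3 and Vipr2 to the left.

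Ptger3, a Gi-coupled receptor for prostaglandin E2, read 3.16, 4.11 and 5.64 in ascending aorta, 3.71, 3.53 and 3.85 in coronary artery, 5.92, 6.11 and 5.20 in descending aorta and 3.80, 4.41 and 4.33 in superior mesenteric artery. Coronary artery lay wholly below descending aorta, by 2.04 ± 0.48 (limma adjusted p = 0.0380), whereas the ascending aorta arrays spread over nearly the whole range. The call was lost without any 1 coronary artery array, descending aorta replicate 1 or 2, or superior mesenteric artery replicate 2 or 3 (limma adjusted p between 0.0511 and 0.173). The difference between descending aorta and superior mesenteric artery, 1.56 ± 0.48, did not pass with all arrays (limma adjusted p = 0.118), and it passed without ascending aorta replicate 1 or 3 (0.0153 in both fits). Adipose tissue is a known site of Ptger3. The adipocyte list (9 of 10 markers) averaged 6.97, 8.36 and 8.77 in ascending aorta, 6.36 to 6.76 in coronary artery, 8.59 to 9.17 in descending aorta and 6.67 to 7.24 in superior mesenteric artery. The list and Ptger3 were both lowest in replicate 1 and highest in replicate 3 of ascending aorta. In superior mesenteric artery the list was highest in replicate 1 (7.24), where Ptger3 was lowest. Replicate 1 of ascending aorta was also lowest of its vessel for the fibroblast list (6.13) and the smooth muscle list (6.55). The mast cell list (7 of 7 markers) averaged 4.98 to 5.53 in descending aorta and 3.88 to 4.90 in the other arrays. The part of fat around the vessel, or of other cell types, was not tested.

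Vipr2, a Gs-coupled receptor for the dilator peptide VIP, read 3.51, 4.08 and 4.17 in ascending aorta, 2.97, 3.34 and 2.92 in coronary artery, 4.70, 4.03 and 3.999 in descending aorta and 4.38, 3.49 and 3.87 in superior mesenteric artery. The 3 coronary artery arrays lay below all 9 others. Coronary artery was lower than descending aorta by 1.16 ± 0.28 (limma adjusted p = 0.0419). The coronary artery values were near the low Chrm2 means outside that vessel, and whether they lie above background is not known here. The call was lost without any 1 array of either vessel, and also with replicate 2 of ascending aorta or replicate 3 of superior mesenteric artery left out (limma adjusted p between 0.0522 and 0.184). The smooth muscle list was also lowest in the coronary artery arrays, and its part was not tested. Vipr1, the other VIP receptor, did not pass (limma F test adjusted p = 0.26). Its ascending aorta mean of 4.18 was above means of 3.69 in coronary artery, 3.68 in descending aorta and 3.85 in superior mesenteric artery. All 3 ascending aorta arrays lay above the other 9, as they did for 0.391% of all genes. Its dimmer probe set also had the highest mean in ascending aorta, 3.73, with 3.22, 3.65 and 3.50 in the same order.

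Promoter sequences were looked up for the receptors that passed, to show the regulatory DNA beside the measurements. RefSeq held a promoter (250 bases before to 50 after the start of the gene, build GRCm38.p6) for 5 of the 6, Agtr1a being the exception. Printed 5′ to 3′ are a pair that was higher and a pair that was lower in coronary artery than in descending aorta. Capitals mark matches on either strand to the TATA box (TATAAA), the GC box (GGGCGG), the CCAAT box, the cAMP response element (TGACGTCA), the GATA motif (AGATAA) or the CArG box of smooth muscle genes.
Chrm2 (chr6:36387834-36388133, plus strand): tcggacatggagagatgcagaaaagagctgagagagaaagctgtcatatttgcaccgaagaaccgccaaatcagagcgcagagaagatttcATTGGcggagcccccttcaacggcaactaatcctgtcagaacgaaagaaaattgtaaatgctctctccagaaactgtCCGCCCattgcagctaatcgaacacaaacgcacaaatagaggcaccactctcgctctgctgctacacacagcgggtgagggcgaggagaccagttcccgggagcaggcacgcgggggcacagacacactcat
Calcrl (chr2:84425217-84425516, minus strand): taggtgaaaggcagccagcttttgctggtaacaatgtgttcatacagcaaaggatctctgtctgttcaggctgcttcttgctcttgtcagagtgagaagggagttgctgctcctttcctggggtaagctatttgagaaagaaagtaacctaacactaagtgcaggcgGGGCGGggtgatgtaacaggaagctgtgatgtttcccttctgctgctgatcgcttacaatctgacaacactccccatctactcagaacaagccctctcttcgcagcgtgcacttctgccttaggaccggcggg
Ptger3 (chr3:157566626-157566925, plus strand): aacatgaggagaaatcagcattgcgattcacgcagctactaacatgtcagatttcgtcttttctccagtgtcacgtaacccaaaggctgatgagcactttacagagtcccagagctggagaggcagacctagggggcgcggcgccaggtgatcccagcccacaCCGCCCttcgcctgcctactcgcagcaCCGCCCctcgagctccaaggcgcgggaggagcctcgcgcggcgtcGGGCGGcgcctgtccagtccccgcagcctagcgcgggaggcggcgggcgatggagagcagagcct
Vipr2 (chr12:116077476-116077775, plus strand): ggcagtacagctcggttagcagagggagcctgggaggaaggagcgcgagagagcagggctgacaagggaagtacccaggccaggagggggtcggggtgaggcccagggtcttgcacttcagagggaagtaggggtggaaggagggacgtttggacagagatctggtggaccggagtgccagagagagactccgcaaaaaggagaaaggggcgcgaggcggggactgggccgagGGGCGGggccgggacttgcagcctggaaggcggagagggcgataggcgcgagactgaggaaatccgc

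The GC box occurred in all 4 printed promoters, 3 times in that of Ptger3 and 1 time in each of the others, and in 35.7% of the 32851 mouse promoters of this length. Of the 34 measured receptors with a promoter, 20 held it. The Chrm2 promoter also held a CCAAT match, a motif present in 37.4% of promoters. No printed window held the TATA box (13.6% of promoters), the cAMP response element (1.79%), the GATA motif (11.2%) or the CArG box (1.63%), and no matches overlapped. The GC content was 52.7% for Chrm2 and 50.7% for Calcrl, and 64.0% for Ptger3 and 65.3% for Vipr2, with a median of 52.7% over all promoters. These are descriptions of letters in a window and say nothing of which factors bind there.

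Ptgir, the Gs-coupled receptor for the dilator prostacyclin, was highest in superior mesenteric artery. It read 3.51, 3.35 and 3.36 in ascending aorta, 3.44, 3.37 and 3.53 in coronary artery, 3.19, 3.21 and 3.31 in descending aorta and 3.95, 3.93 and 3.81 in superior mesenteric artery. The superior mesenteric artery arrays lay above and the descending aorta arrays below all 9 others, patterns seen in 0.752% and 0.772% of all genes. Descending aorta was lower than superior mesenteric artery by 0.66 ± 0.15 (limma adjusted p = 0.0287), and the call was lost without any 1 array of either vessel (limma adjusted p between 0.0675 and 0.118). Every Ptgir value lay below the lowest array median over genes, 4.04, and whether such values lie above background is not known here.

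With Calcrl this made 2 of 40 receptors lower and 0 higher in descending aorta than in superior mesenteric artery (5%, against 3.2% of all genes). In that pair 0.361% of all genes were lower and 2.84% higher in descending aorta. The limma count was 5 without ascending aorta replicate 1 and 1 without descending aorta replicate 1 or 3 or any 1 superior mesenteric artery array. At an unadjusted p under 0.05, 8 receptors were lower and 1 higher in descending aorta, where 5.43% and 8.48% of all genes lay. The median difference of the 40 receptors was -0.18, and that of all genes was -0.01.

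Ascending aorta and coronary artery differed in 2 of 40 receptors, Agtr1a and Chrm2, both lower in ascending aorta (5%, against 2.47% of all genes, with 1.87% lower). Coronary artery and superior mesenteric artery also differed in 2, the same receptors, both higher in coronary artery (5%, against 3.24% of all genes, with 2.71% higher). This second limma count was 1, Chrm2, without coronary artery replicate 1 or 3 or superior mesenteric artery replicate 2 or 3. These comparisons share the coronary artery arrays, so they are not independent.

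Ascending and descending aorta differed in 0 of 40 receptors in limma, where 0.015% of all genes passed. At an unadjusted p under 0.05 there were 4, Ptger3 lower in ascending aorta and Ptger4, Vipr1 and S1pr3 higher, which is 10% of the receptors against 9.64% of all genes (6.27% lower and 3.37% higher). Ascending aorta and superior mesenteric artery also differed in 0 of 40 receptors in limma (0.176% of all genes). In this pair 4 receptors, Agtr1a, Ednrb, Ptgir and Calcrl, were lower in ascending aorta at an unadjusted p under 0.05, or 10% against 3.46% of all genes lower and 7.22% in either direction. That limma count was 2, Calcrl and S1pr1, without ascending aorta replicate 1 and 1, Calcrl, without superior mesenteric artery replicate 2.

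**Figure D3:**
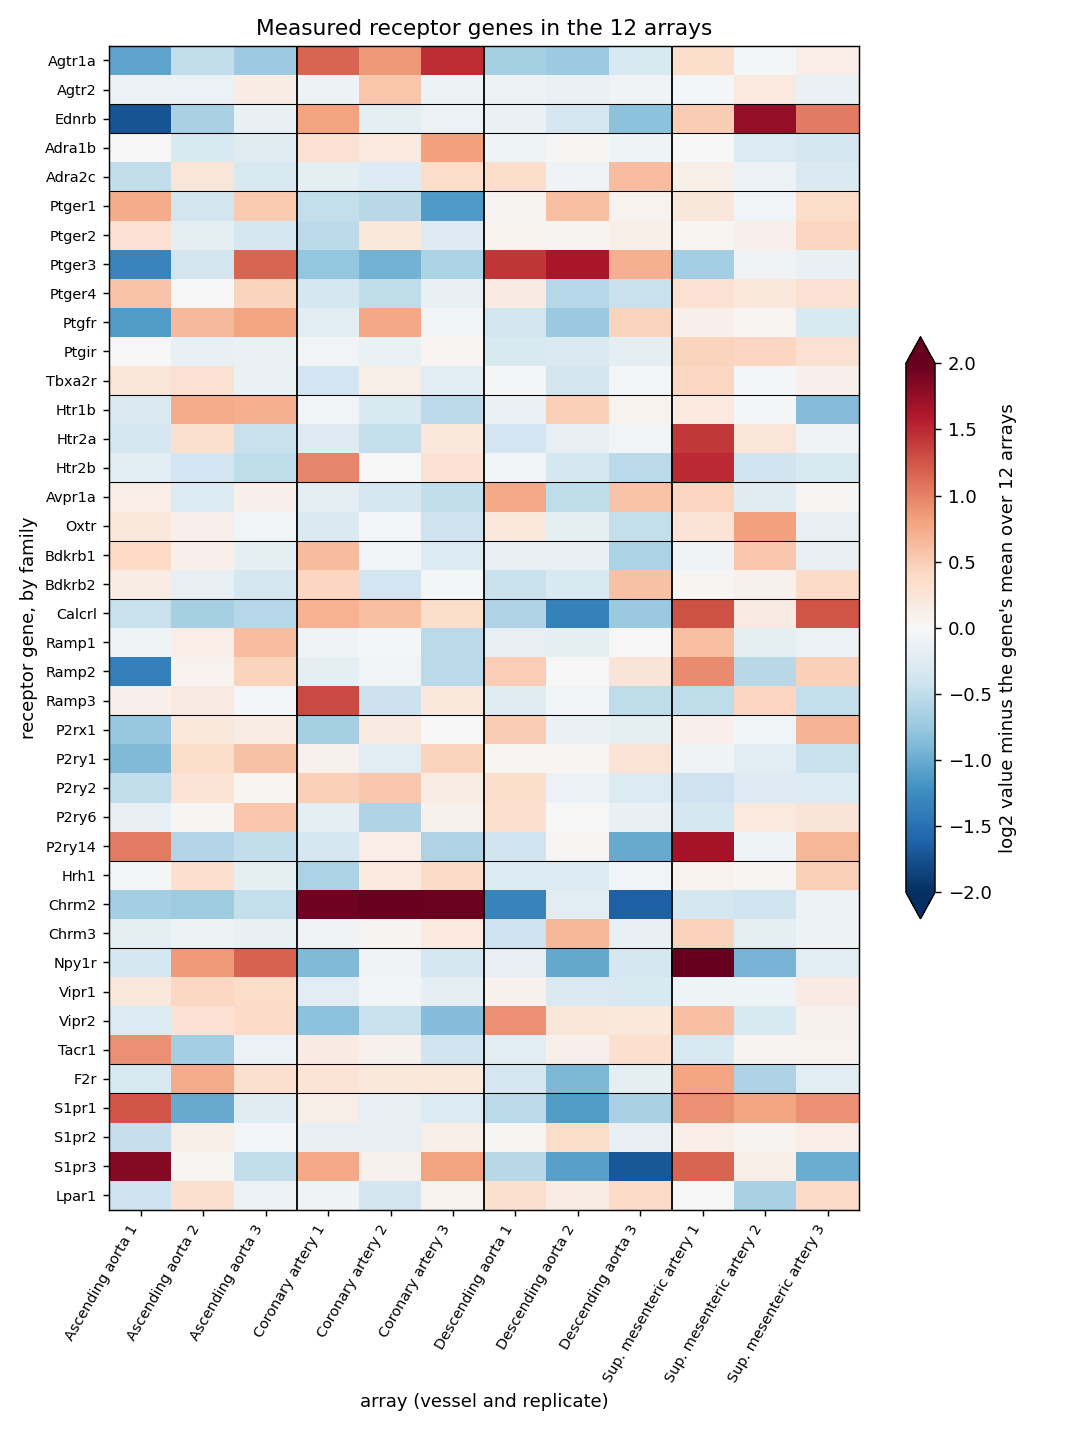
Log2 value of each measured receptor minus its own mean over the 12 arrays (colour, limited to 2 units either way) by array (columns, in vessels) and gene (rows, in families). Chrm2 and Agtr1a are high in the 3 coronary artery arrays; Npy1r, Htr2a, Htr2b and P2ry14 are high in superior mesenteric artery replicate 1.

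Several receptors that did not pass varied widely between arrays of 1 vessel. Ednrb, the endothelin receptor through which endothelium releases nitric oxide, had the widest range of vessel means among the receptors that did not pass. It read 4.02, 5.10 and 5.61 in ascending aorta, 6.56, 5.55 and 5.62 in coronary artery, 5.62, 5.42 and 4.93 in descending aorta and 6.26, 7.51 and 6.79 in superior mesenteric artery. Its means were 4.91 ± 0.81 in ascending aorta, 5.91 ± 0.56 in coronary artery, 5.32 ± 0.36 in descending aorta and 6.85 ± 0.63 in superior mesenteric artery. The superior mesenteric artery arrays lay above all 6 aortic arrays and overlapped those of coronary artery. The differences were -1.95 ± 0.43 for ascending aorta and -1.53 ± 0.43 for descending aorta against superior mesenteric artery (limma adjusted p = 0.121 and 0.0813). Without ascending aorta replicate 1, the comparison of descending aorta with superior mesenteric artery passed (limma adjusted p = 0.0151). That array belongs to neither vessel, so the difference stayed at -1.53 and only its SE fell, from 0.43 to 0.34.

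S1pr1, the receptor for sphingosine 1-phosphate that stabilises endothelium and lets lymphocytes leave lymphoid tissue, read 8.39, 6.13 and 6.89 in ascending aorta, 7.25, 6.97 and 6.87 in coronary artery, 6.59, 6.03 and 6.50 in descending aorta and 8.05, 7.92 and 8.04 in superior mesenteric artery. Apart from ascending aorta replicate 1, the superior mesenteric artery arrays were higher than every other. Descending aorta differed from superior mesenteric artery by -1.63 ± 0.42 (limma adjusted p = 0.0583), and it passed without ascending aorta replicate 1 or 2 (0.000512 and 0.0171). Without replicate 1 of ascending aorta, that vessel was lower than superior mesenteric artery by 1.49 ± 0.25 (limma adjusted p = 0.00510, against 0.724 with it), and coronary artery was lower than superior mesenteric artery by 0.97 ± 0.22 (0.0201, against 0.299). B and T cell lists were high in the same array, at 7.80 and 7.46, and their part was not tested. In superior mesenteric artery replicate 1 the B cell list stood at 4.59 while S1pr1 read 8.05, as high as in the other superior mesenteric artery arrays.

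S1pr3, a second sphingosine 1-phosphate receptor, read 5.90, 4.09 and 3.56 in ascending aorta, 4.81, 4.14 and 4.87 in coronary artery, 3.50, 2.98 and 2.37 in descending aorta and 5.23, 4.18 and 3.06 in superior mesenteric artery. It averaged 4.52 ± 1.23 in ascending aorta, 4.61 ± 0.40 in coronary artery, 2.95 ± 0.57 in descending aorta and 4.16 ± 1.08 in superior mesenteric artery. The coronary artery arrays lay above those of descending aorta, by 1.66 ± 0.60, which did not pass (limma adjusted p = 0.224). It passed when only the 6 arrays of the pair were fitted (limma adjusted p = 0.00491). It also passed with replicate 1 of ascending aorta, replicate 1 of descending aorta and replicate 3 of superior mesenteric artery left out together (0.0112). In that fit S1pr3 was also lower in descending aorta than in superior mesenteric artery (0.0149). S1pr2 and Lpar1, receptors for sphingosine 1-phosphate and lysophosphatidic acid, had vessel means between 5.21 and 5.44 and between 6.29 and 6.69.

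**Figure D4:**
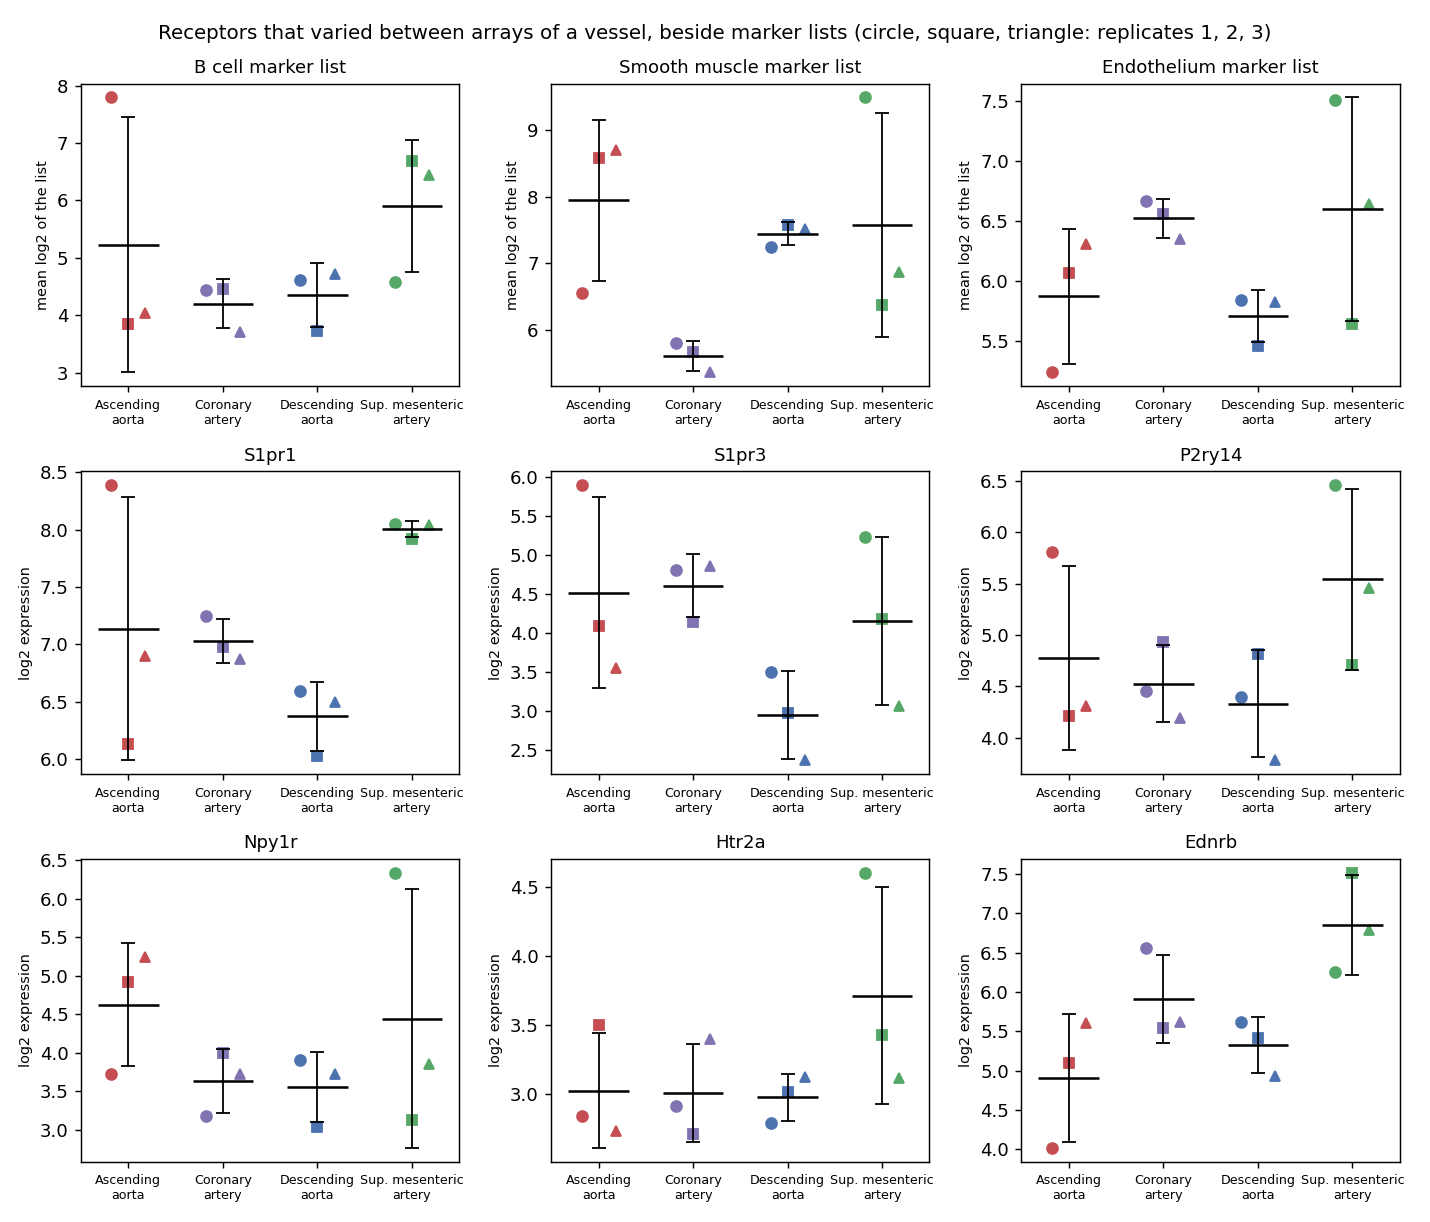
Top row, mean log2 value of the B cell, smooth muscle and endothelium marker lists per array; lower rows, log2 expression of 6 receptors (vertical axes, range set per panel) by vessel, with means as bars and SD as error bars (n = 3). Ascending aorta replicate 1 has the highest S1pr1 and S1pr3 of its vessel, and superior mesenteric artery replicate 1 has the highest Npy1r, Htr2a and P2ry14.

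Superior mesenteric artery replicate 1 read highest of all arrays for several receptors, Calcrl and Ptgir among them. The 4 described here were picked out after their values were seen. Npy1r, the receptor through which neuropeptide Y from sympathetic nerves constricts arteries, read 3.72, 4.91 and 5.24 in ascending aorta and 6.33, 3.13 and 3.86 in superior mesenteric artery. Its coronary artery values were 3.18 to 3.99 and its descending aorta values 3.04 to 3.90. Htr2a, the main constrictor receptor for serotonin, read 4.60 in superior mesenteric artery replicate 1 and at most 3.50 in the other 11 arrays. Htr2b, a related serotonin receptor, read 5.13 in that array and at most 4.60 elsewhere, and P2ry14, a receptor for UDP-glucose, read 6.46 there and at most 5.81 elsewhere. Over all replicates Htr2b averaged 3.27 ± 0.15 in ascending aorta, 4.05 ± 0.50 in coronary artery, 3.32 ± 0.24 in descending aorta and 3.90 ± 1.07 in superior mesenteric artery. For P2ry14 the averages were 4.78 ± 0.90 in ascending aorta, 4.53 ± 0.38 in coronary artery, 4.33 ± 0.52 in descending aorta and 5.54 ± 0.88 in superior mesenteric artery, and every pair of vessels overlapped. The smooth muscle list averaged 9.49 in that array, against 6.36 and 6.87 in superior mesenteric artery replicates 2 and 3, and the endothelial list 7.51 against 5.64 and 6.64. The part of either cell type was not tested. None of these 4 receptors passed in limma (F test adjusted p = 0.628 for Npy1r, 0.494 for Htr2a, 0.548 for Htr2b and 0.444 for P2ry14).

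Among the other prostanoid receptors, Ptger1, which raises calcium, was lower in all 3 coronary artery arrays (4.44, 4.37 and 3.79) than in each of the other 9 (4.56 to 5.67). The difference of -0.96 ± 0.29 between coronary artery and descending aorta did not pass (limma adjusted p = 0.126). Without ascending aorta replicate 2 it did (0.0495), as did the difference of 1.36 ± 0.26 between ascending aorta and coronary artery (0.0214, against 0.1 with all arrays). Ptger4 and Ptger2, the Gs-coupled receptors for prostaglandin E2, had vessel means between 4.77 and 5.44 and between 2.85 and 3.23. Tbxa2r, which mediates constriction by thromboxane, had means between 4.25 and 4.56, and Ptgfr, the prostaglandin F2alpha receptor, between 4.24 and 4.63.

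Adra1b, an alpha-adrenoceptor that contracts smooth muscle, was higher in all 3 coronary artery arrays (3.70, 3.59 and 4.22) than in each of the other 9 (3.07 to 3.42). Its vessel means were 3.22 ± 0.17 in ascending aorta, 3.84 ± 0.34 in coronary artery, 3.35 ± 0.06 in descending aorta and 3.19 ± 0.17 in superior mesenteric artery. The difference of 0.49 ± 0.19 between coronary artery and descending aorta did not pass (limma adjusted p = 0.295). These values are low, and whether they lie above background is not known here. In all, 3 receptors, Agtr1a, Adra1b and Chrm2, lay wholly higher in coronary artery (7.5%, against 3.49% of all genes), and 2, Ptger1 and Vipr2, lay wholly lower (5%, against 1.83%). Adra2c, a receptor that restrains noradrenaline release, had vessel means between 2.73 and 3.21.

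The receptors left had vessel means less than 1 log2 unit apart. Htr1b, a serotonin receptor, had vessel means between 4.03 and 4.70. With the 3 arrays named for S1pr3 left out, Htr1b was higher in ascending aorta than in coronary artery by 1.02 ± 0.22 (limma adjusted p = 0.0321, against 0.362 with all arrays). Avpr1a, the constrictor receptor for vasopressin, averaged 3.39 ± 0.23 in ascending aorta, 3.06 ± 0.15 in coronary artery, 3.67 ± 0.69 in descending aorta and 3.47 ± 0.34 in superior mesenteric artery, and Oxtr, the oxytocin receptor, had means between 2.90 and 3.45. Bdkrb1, the inducible bradykinin receptor, averaged 4.09 ± 0.30 in ascending aorta, 4.09 ± 0.47 in coronary artery, 3.67 ± 0.28 in descending aorta and 4.09 ± 0.37 in superior mesenteric artery. Bdkrb2, the resident bradykinin receptor, had means between 3.62 and 3.90. Of the nucleotide receptors, the ATP-gated channel P2rx1 had means between 3.20 and 3.60, P2ry1, which binds ADP, between 4.24 and 4.60, P2ry2, which binds ATP and UTP, between 3.18 and 3.88, and P2ry6, which binds UDP, between 5.57 and 5.94. F2r, the thrombin receptor, averaged 6.51 ± 0.52 in ascending aorta, 6.49 ± 0.04 in coronary artery, 5.78 ± 0.37 in descending aorta and 6.24 ± 0.73 in superior mesenteric artery. Tacr1, the substance P receptor, had means between 3.19 and 3.31. With all arrays none of these 11 genes passed in any pair, and their F test adjusted p in limma lay between 0.335 and 0.991.

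Grouped by their best known G protein, the receptors that passed between coronary artery and descending aorta fell into the Gq/11, Gi/o and Gs classes. The 8 measured receptors with other or several couplings had 0 higher and 0 lower (median difference -0.12). Gq/11-coupled receptors had 1 of 19 higher and 0 lower, with a median difference of 0.06. Gi/o-coupled receptors had 1 of 7 higher and 1 lower (median 0.08), and Gs-coupled receptors had 1 of 6 higher and 1 lower (median -0.02), where 1.53% of all genes were higher and 1.61% lower (median -0.01). Between descending aorta and superior mesenteric artery, the 2 receptors that passed, Calcrl and Ptgir, are both Gs-coupled, and the Ptgir call was lost without any 1 array of either vessel. They made 2 of 6 measured Gs-coupled receptors lower in descending aorta, beside 0.361% of all genes. The other classes had 0 higher and 0 lower. The median difference was -0.36 over 6 Gs-coupled, -0.22 over 19 Gq/11-coupled and -0.77 over 7 Gi/o-coupled receptors. It was -0.10 over the 8 with other or several couplings and -0.01 over all genes. Differences between the classes were not tested.

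Genes that make, break down or relay these signals passed in a few cases. For the genes in this paragraph and the next, whether a call holds with an array left out or in another fit was not examined. Of 35 measured genes for vasoactive ligands and their enzymes, 6 passed in at least 1 pair (6.8% of all genes did). Ptgds, a prostaglandin D2 synthase, averaged 8.04 ± 0.23 in coronary artery and 4.47 ± 0.13 in descending aorta, a difference of 3.57 ± 0.20 (limma adjusted p = 5.74e-07). The cardiomyocyte list was high in the same coronary artery arrays, and its part was not tested. Hpgd, which inactivates prostaglandins, was higher in coronary artery than in descending aorta by 1.58 ± 0.35 (limma adjusted p = 0.0284). Mme, the enzyme neprilysin that cleaves vasoactive peptides, averaged 6.99 ± 0.21 in descending aorta and 4.32 ± 0.37 in superior mesenteric artery, a 6.37-fold difference (limma adjusted p = 0.000338). Agt, the precursor of angiotensin, was lower in coronary artery than in superior mesenteric artery by 1.20 ± 0.28 (limma adjusted p = 0.0335). It read 3.51, 2.69 and 3.48 in coronary artery and 3.31 to 3.64 in ascending and descending aorta. These values lie below the lowest array median over genes, 4.04, and whether they lie above background is not known here. Agtr1a was higher in coronary artery in that pair, a call lost without coronary artery replicate 1 or 3 or superior mesenteric artery replicate 2 or 3. Ptgs2, the inducible cyclooxygenase, was lower in descending aorta than in superior mesenteric artery by 1.43 ± 0.35 (limma adjusted p = 0.0434). Sgpl1, which breaks down sphingosine 1-phosphate, was higher in ascending aorta than in coronary artery by 1.08 ± 0.23 (limma adjusted p = 0.0277).

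Of 32 measured G protein subunits and effectors, 4 passed in at least 1 pair, and of 11 genes for receptor desensitization 1 did, beside 6.8% of all genes. Prkar2b, a regulatory subunit of cyclic AMP-dependent kinase, averaged 4.50 ± 0.50 in coronary artery and 8.22 ± 0.20 in descending aorta (difference -3.72 ± 0.39, limma adjusted p = 0.000123). Pde3b, a phosphodiesterase of cyclic AMP, was lower in coronary artery than in descending aorta by 2.33 ± 0.25 (limma adjusted p = 0.000140). Both are known as adipocyte genes, and the adipocyte list was lower in the coronary artery arrays than in the descending aorta arrays, with its part not tested. Adcy3, an adenylyl cyclase, was lower in coronary artery than in descending aorta by 1.04 ± 0.23 (limma adjusted p = 0.0291). Gnai2, a Gi subunit, was lower in descending aorta than in superior mesenteric artery by 0.82 ± 0.17 (limma adjusted p = 0.0179). Rgs2, which limits Gq signalling by constrictor receptors, averaged 7.54 ± 0.40 in descending aorta and 6.32 ± 0.16 in superior mesenteric artery, a difference of 1.22 ± 0.25 (limma adjusted p = 0.0197). It was lower in coronary artery than in descending aorta by 1.27 ± 0.25 (limma adjusted p = 0.0139).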

How the data were processed

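Total RNA of 12 vessel samples was hybridised to Affymetrix arrays. The authors deposited log2 values for 35556 probe sets; per the submitters' processing notes RMA and Partek 6.6 were used, with no role or order, so normalization was taken as deposited. Of the probe sets, 21789 had 1 gene symbol; each of 19938 genes was represented by its brightest probe set on average, with array medians between 4.04 and 4.18. No low-value filter was applied. Vessel means were estimated for all genes from the 12 arrays with limma 3.58.1 in R 4.3.3 and tested on simulated data. P-values were adjusted by Benjamini-Hochberg over all genes within a comparison, with a threshold of 0.05. All receptors that passed, the member with the widest vessel means in each family and the ranges of the rest were to be named, with at most 5 members of each other list that passed in a comparison. The members and lists were chosen with earlier results of these data known. Alternatives were renewed quantile normalization, median centring, omission of the dimmest 25% of genes, averaged probe sets, array weights, the replicate number as a block, a variance trend with robust estimation, only the 6 arrays of a pair, adjustment over the 6 comparisons together, and omission of each array. Another omitted 3 arrays high in marker lists of other tissue, named without a cut-off. It kept the coronary artery arrays, highest for the cardiomyocyte list, and superior mesenteric artery replicate 2, with a B cell list of 6.69. That fit was therefore not free of other tissue.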

Additional observations from a re-analysis of the deposited data

How the results depend on the processing

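The count of receptors differing among the 4 vessels, 3 as reported, was 8 with array weights and 5 with 3 arrays omitted because marker lists of lymphoid, heart or pancreatic tissue were high in them (replicate 1 of ascending aorta, replicate 1 of descending aorta, replicate 3 of superior mesenteric artery), and 3 to 7 with each array left out in turn. With array weights there were 4 receptors for ascending aorta against coronary artery, 2 for ascending aorta against superior mesenteric artery and 6 for descending aorta against superior mesenteric artery. Without those 3 arrays there was 1 for ascending aorta and 1 for coronary artery, each against superior mesenteric artery. Adjustment over the 6 comparisons together gave 2 for ascending aorta against superior mesenteric artery and 3 for coronary artery against descending aorta. The share of all genes that passed was not worked out for any alternative fit. Whether a changed count is particular to the receptors is therefore not known. Same-numbered arrays of different vessels did not deviate together (0 of 18 pairs correlated above 0.1), so the numbers were not taken as pairs. These correlations cannot show whether vessels with the same number came from the same mice. With the replicate number as a block the count for coronary artery against descending aorta was also 3, since Ptger3 and Vipr2 did not pass (limma adjusted p = 0.0568 and 0.0799), and the other 9 calls of a receptor in a pair were made again. S1pr1 then passed between descending aorta and superior mesenteric artery (0.0363) and Calcrl between ascending aorta and coronary artery (0.0417). Fitting only the 6 arrays of the pair gave 4 for descending aorta against superior mesenteric artery (Ednrb, Ptger3, Calcrl and S1pr1), and Ptgir was lost (limma adjusted p = 0.0561). Without the 3 arrays named above, Ptgir (0.107), Vipr2 (0.103) and the Agtr1a call between coronary artery and superior mesenteric artery (0.0532) were lost. The same fit added S1pr3 for descending aorta against coronary artery and superior mesenteric artery (limma adjusted p = 0.0112 and 0.0149). It also added S1pr1 for superior mesenteric artery against descending and ascending aorta (0.00741 and 0.0315), and Htr1b between ascending aorta and coronary artery (0.0321). With each array left out the counts were 0 throughout for ascending against descending aorta, 2 to 3 for ascending aorta against coronary artery, 0 to 2 for ascending aorta against superior mesenteric artery, 2 to 5 for coronary artery against descending aorta, 1 to 3 for coronary artery against superior mesenteric artery and 1 to 5 for descending aorta against superior mesenteric artery. Renewed quantile normalization, median centring, the filter on dim genes, averaged probe sets and the variance trend kept all 11 calls of a receptor in a pair, and no call changed direction in any alternative. Values near the floor of the array limit what can be said of dim receptors, since detection calls were not used here.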
